A study of Mus musculus with 6 samples.

Results

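The semaphorins are a family of guidance ligands, and the plexins and neuropilins are their receptors. The 33 genes described here were taken from 22180 named genes on the array by their symbols alone: Sema3 to Sema7 genes, plexins, the plexin domain containing genes Plxdc1 and Plxdc2, and the neuropilins Nrp1 and Nrp2. They divide into 20 ligands and 13 receptors. RNA came from mice aged 12 months, from the outer wall of the eye taken as 1 piece: the retinal pigment epithelium (RPE, the pigmented layer that serves the photoreceptors) with the choroid and sclera. One group consisted of heterozygous 5XFAD mice (3 arrays), which carry mutant human amyloid precursor protein and presenilin transgenes driven by the neuronal Thy1 promoter, and the other of non-transgenic wild-type littermates (3 arrays). No treatment was given to either group. The labels do not say whether each sample was a separate animal or a pool, so p-values refer to the variation among these samples, part of which may be technical.

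Semaphorins of class 3 are secreted, those of classes 4 to 6 span the membrane and Sema7a is held there by a lipid anchor. Most class 3 ligands bind a neuropilin, which pairs with a plexin to pass the signal into the cell, whereas the other classes bind plexins directly. The intracellular part of a plexin switches off small GTPases of the Ras family and so alters the cytoskeleton and adhesion. In the eye these proteins are known for guiding retinal axons and shaping blood vessels, and neuropilins also bind vascular endothelial growth factors.

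Values are normalized log2 intensities, on which a difference of 1 is a doubling. They were compared with limma, a linear model that shares variance information across all genes, and p-values were adjusted by Benjamini and Hochberg's method over all 22180 genes. Array medians ran from 5.59 to 5.71, and arrays correlated at 0.981 to 0.990 within groups and at 0.983 to 0.990 between them. The defining RPE markers were bright, with 15 of 16 above the median level of all genes, and all 10 endothelial and all 10 fibroblast and sclera markers were also above it. Means per array of 4 of 15 marker lists did not overlap between the groups. The RPE list was lower in 5XFAD (10.26 to 10.46, against 10.67 to 10.84 in wild type). The surface epithelium list was higher (6.39 to 7.10 in 5XFAD, against 5.45 to 5.56), as was that of pericytes and smooth muscle (9.11 to 9.49 in 5XFAD, against 8.98 to 9.04). The lens list, whose genes were mostly dim, lay at 5.63 to 5.73 in 5XFAD and at 5.73 to 5.85 in wild type. Lists with overlapping means also shifted. The skeletal muscle list had a median difference of 0.86 (6.13 to 7.32 in 5XFAD, against 5.43 to 6.76). That of Muller glia and astrocytes had one of 0.51 (8.02 to 8.59 in 5XFAD, against 7.89 to 8.23). The 7 Muller glia and astrocyte genes were split, with 5 higher and 2 lower, namely Glul (-0.04) and Rlbp1 (-0.54). Rlbp1 is also in the RPE list. The ciliary and iris epithelium list had a median difference of 0.22 (8.04 to 8.34 in 5XFAD, against 7.54 to 8.11). That of T cells and NK cells had one of -0.22 (5.28 to 5.59 in 5XFAD, against 5.56 to 5.64). In bulk tissue, fewer cells of a type and less RNA per cell cannot be told apart.

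None of the 33 genes passed the adjusted threshold of 0.05 in limma (0 of 33, where 5 of all genes, or 0.0225%, passed). At an unadjusted p under 0.05 limma gave 2 of 33 members, or 6.06%, where the same p was met by 6.28% of all genes, so the family as a whole stood at the background rate. Both were class 3 ligands and they differed in opposite directions: Sema3c was lower in 5XFAD and Sema3e was higher. Among all genes 2.89% were higher and 3.39% lower at that p. The groups did not overlap for 6 members (18.2%, where 11.3% of all genes did not overlap), namely Sema3c, Sema3e, Sema3g, Sema4a, Sema6c and Plxna3. Without wild type replicate 2, the array of lowest mean correlation with the others (0.984), 4 members were under that p, with Plxna4 and Sema6a added. The 6.28% of all genes refers to all 6 arrays, so these 4 cannot be set against it.

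**Figure D1:**
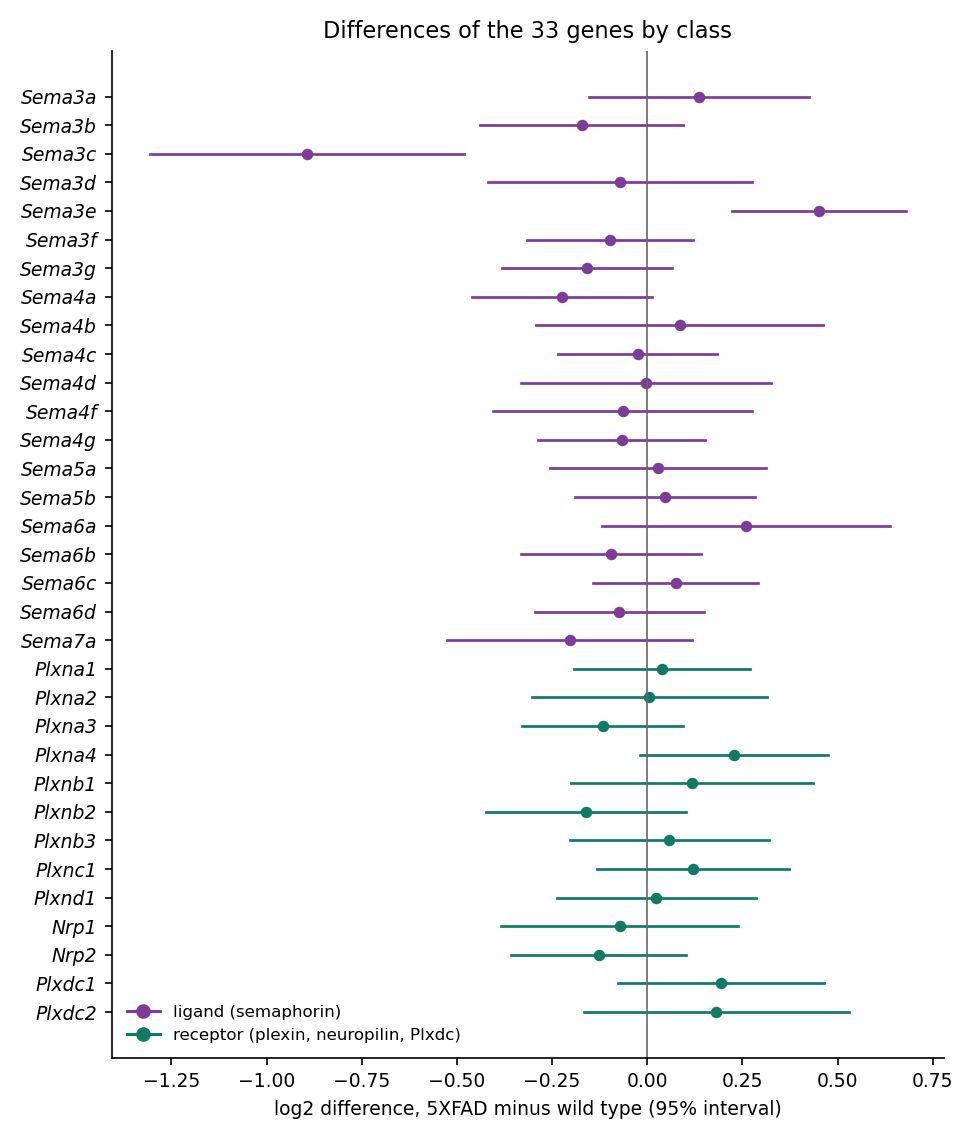
Log2 difference, 5XFAD minus wild type (horizontal axis), of each of the 33 genes (rows, by class), with 95% intervals from limma as bars, ligands in purple and receptors in green. The intervals of Sema3c (-0.89) and Sema3e (0.45) leave out 0, and those of the other 31 genes hold it.

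Sema3c encodes a secreted ligand that signals through neuropilins with plexins of the A and D types and is known for its part in the outflow vessels of the developing heart. Its log2 intensities were 9.52, 9.28 and 9.91 in 5XFAD replicates 1 to 3, against 10.17, 10.51 and 10.70 in wild type replicates 1 to 3. Every 5XFAD array lay below every wild-type array, and the nearest were 5XFAD replicate 3 and wild type replicate 1. The means were 9.57 ± 0.32 in 5XFAD and 10.46 ± 0.27 in wild type (SD, n = 3 each), a log2 difference of -0.89 ± 0.18 (SE) with a 95% interval from -1.31 to -0.48, or a 0.538-fold level. In limma the unadjusted p was 0.000814 and the adjusted p 0.291, so the difference did not pass. An exact two-sided permutation test over the samples gave p = 0.1, the smallest that 3 against 3 arrays allow. With each array left out in turn the difference ran from -1.07 (without 5XFAD replicate 3) to -0.75 (without 5XFAD replicate 2).

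Like Sema3c, most RPE markers were lower in 5XFAD, in a list chosen with earlier results of these data known. Of the 16 listed, 15 had a negative difference, where 11702 of 22180 genes did. At an unadjusted p under 0.05 in limma 12 were lower, where 3.39% of all genes were (0 of the 16 passed after adjustment). The exception in sign was Best1 (0.26), and the median was -0.46. The largest decrease among them, that of Rrh (-0.64), was smaller in size than the Sema3c difference of -0.89. On 5XFAD replicates 1 to 3 the list mean was 10.35, 10.26 and 10.46, against 10.67, 10.84 and 10.77 on wild type replicates 1 to 3. Within 5XFAD the order of the arrays was the same for Sema3c and for the RPE list, with replicate 2 lowest and replicate 3 highest, whereas within wild type replicate 1 was lowest in both but the highest array was replicate 3 for Sema3c and replicate 2 for the RPE list. With the RPE list mean as a covariate, chosen after seeing the data, the fitted Sema3c difference was 0.25 ± 0.36 (SE, limma unadjusted p = 0.504), in place of -0.89. The list mean itself separates the groups, so a change with genotype and a change with RPE RNA cannot be told apart for Sema3c in these arrays.

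The ligand encoded by Sema3e is unusual in its class in that it binds the plexin D1 receptor without a neuropilin, and it is known for restraining vessel growth in the developing retina. Sema3e had log2 intensities of 5.39, 5.47 and 5.44 in 5XFAD, against 4.86, 5.06 and 5.03 in wild type. The 5XFAD arrays were tightly grouped and all above the wild-type ones. Means of 5.44 ± 0.04 in 5XFAD and 4.98 ± 0.11 in wild type (SD, n = 3 each) gave a log2 difference of 0.45 ± 0.10 (SE, 95% interval 0.22 to 0.68), a 1.37-fold level, which did not pass (limma, unadjusted p = 0.00148, adjusted p = 0.361). Its mean level was at percentile 34.2 of all genes, where background compresses fold changes. The exact two-sided permutation p was 0.1, again the smallest possible, and with each array left out in turn the difference ran from 0.39 (without wild type replicate 1) to 0.49 (without wild type replicate 2). With the surface epithelium list mean as a covariate, added after seeing the data, the fitted Sema3e difference was 0.38 ± 0.33, and with the RPE list mean it was 0.64 ± 0.30 (SE, limma unadjusted p = 0.284 and 0.0643). Beside these, the Sema3c difference was -1.42 ± 0.58 with the surface epithelium covariate (limma unadjusted p = 0.0397). Both list means separate the groups by themselves, so these fits cannot tell a change with genotype from a change with either list.

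**Figure D2:**
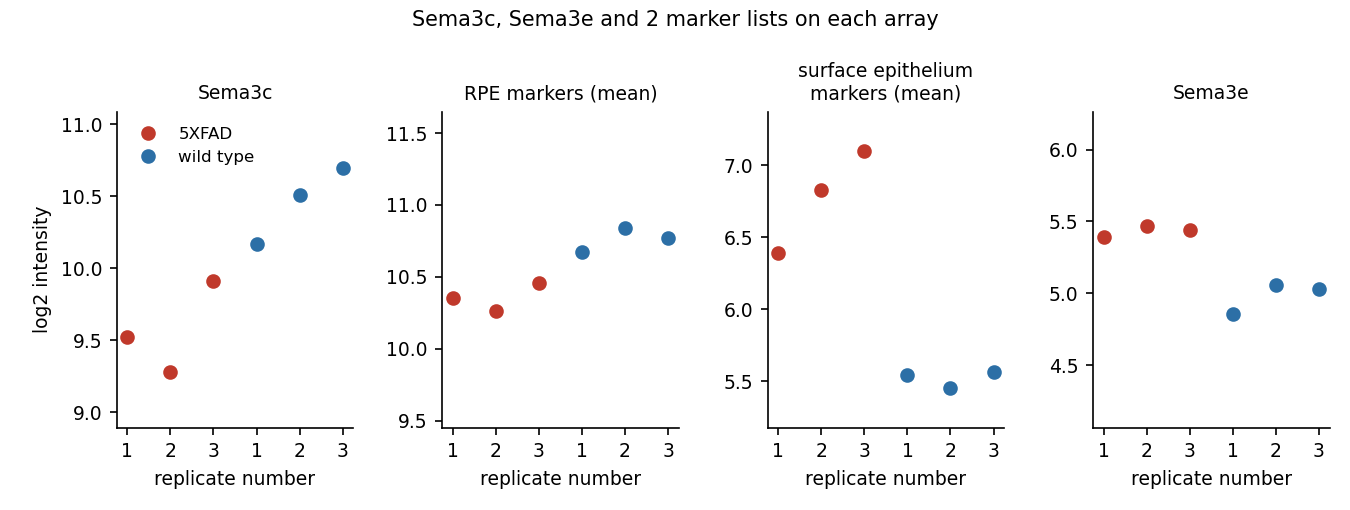
Log2 intensity (vertical axes, all of the same span) of Sema3c, the mean of 16 RPE markers, the mean of 11 surface epithelium markers and Sema3e on each array, by replicate number, with 5XFAD in red and wild type in blue. In all 4 panels the groups do not overlap, with Sema3c and the RPE markers lower in 5XFAD and the other 2 higher.

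Sema3c and Sema3e lie on the same chromosome. In RefSeq's GRCm38.p6 gene order, chromosome 5 carries Sema3d, Sema3a, Sema3e and Sema3c in that sequence, with 16 other measured genes between the first and the last. The log2 differences of these Sema3 genes, in the same order, were -0.07, 0.14, 0.45 and -0.89. Of the 16 other genes, 2 were under an unadjusted p of 0.05 in limma, where 6.28% of all genes were. They were Speer3, which lies between Sema3a and Sema3e, at -0.60, and Hgf at 0.29. The 250 bases before each gene's start are shown for the 2 members under an unadjusted p of 0.05, from RefSeq (GRCm38.p6, both on the + strand), 5′ to 3′, with CpG dinucleotides in capitals, because the pair differ in CpG content. The windows are chr5:17574566-17574815 for Sema3c and chr5:14025026-14025275 for Sema3e.
Sema3c: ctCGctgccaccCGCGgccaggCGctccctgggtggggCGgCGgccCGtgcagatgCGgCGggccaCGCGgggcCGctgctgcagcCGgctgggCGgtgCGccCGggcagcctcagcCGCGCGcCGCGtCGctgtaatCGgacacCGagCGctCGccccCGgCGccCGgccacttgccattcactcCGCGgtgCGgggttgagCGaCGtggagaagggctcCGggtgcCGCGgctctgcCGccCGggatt
Sema3e: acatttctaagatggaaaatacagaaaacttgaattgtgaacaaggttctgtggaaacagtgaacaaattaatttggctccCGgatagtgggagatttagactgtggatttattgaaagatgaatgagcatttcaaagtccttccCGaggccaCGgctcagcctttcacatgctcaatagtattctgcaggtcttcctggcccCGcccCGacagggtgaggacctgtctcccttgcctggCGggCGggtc

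The Sema3c window holds 39 CpG dinucleotides and is 78.4% G or C, and 1.6% of 32851 mouse promoter windows of the same length hold as many. The Sema3e window holds 7 and is 48.0% G or C, which is close to the median window with 6. Motifs of MITF and OTX2, transcription factors of the RPE, were searched on both strands: CACGTG and CATGTG for MITF and TAATCC for OTX2. The single match was CATGTG, on the reverse strand of the Sema3e window, starting 84 bases before the gene, a motif found in 12.3% of all windows. CACGTG occurs in 6.02% of windows and TAATCC in 6.25%, and neither is in these 2. Matches of this kind are descriptions of sequence and not evidence of binding.

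The remaining class 3 ligands gave small differences. Sema3a, which repels axons and vessels through neuropilin-1, was at 5.40, 5.45 and 5.28 in 5XFAD and at 5.33, 4.99 and 5.40 in wild type, a difference of 0.14 ± 0.13 (SE) with overlapping groups. Sema3b was at -0.17 ± 0.12 and Sema3d at -0.07 ± 0.15. Sema3f, which acts mainly through neuropilin-2, was at -0.10 ± 0.10. Sema3g, a ligand known from endothelium, had 7.12, 7.16 and 6.99 in 5XFAD, against 7.31, 7.23 and 7.20 in wild type. Its groups did not overlap, but the gap was narrow and the difference of -0.16 ± 0.10 did not pass (limma unadjusted p = 0.144, adjusted p = 0.905). Over the 7 class 3 ligands 5 differences were negative, where 11702 of 22180 genes had a negative difference, and the median of the 7 was -0.10.

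Among the membrane-bound ligands Sema4a came nearest to the unadjusted threshold. Sema4a is needed for photoreceptor survival in mice and is known to act in the RPE. It had 7.66, 7.61 and 7.68 in 5XFAD, against 7.93, 7.97 and 7.72 in wild type. All 5XFAD arrays were lower, although wild type replicate 3 was within a small step of 5XFAD replicate 3. The difference was -0.22 ± 0.10 (SE), a 0.856-fold level (limma unadjusted p = 0.0606, adjusted p = 0.818). Without wild type replicate 3 it was -0.30 (limma unadjusted p = 0.0208). Under the 17 other settings given below it ran from -0.30 to -0.15, with a limma unadjusted p from 0.0208 to 0.278. RPE markers were lower in the same 5XFAD arrays. With their mean as a covariate, added after seeing the data, the Sema4a difference was -0.13 ± 0.32 (SE, limma unadjusted p = 0.692). That mean separates the groups by itself, so a change with genotype and a change with RPE RNA cannot be told apart for Sema4a either.

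The other class 4 ligands did not differ beyond their spread. Sema4d, the ligand of plexin B1 that also acts on immune cells, was at 6.72, 6.71 and 6.72 in 5XFAD and at 6.98, 6.79 and 6.39 in wild type. Its 5XFAD values lay in the middle of a wide wild-type range, and the difference was -0.004 ± 0.15 (SE). Differences were 0.09 ± 0.17 for Sema4b, -0.02 ± 0.09 for Sema4c, a ligand of plexin B2, -0.06 ± 0.15 for Sema4f and -0.07 ± 0.10 for Sema4g. The median of the 6 class 4 genes was -0.04.

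Class 5 ligands carry thrombospondin-type repeats and act through A-type plexins in the retina, and both stood close to 0, with Sema5a at 0.03 ± 0.13 and Sema5b at 0.05 ± 0.10 (log2 difference ± SE). In class 6, whose members bind A-type plexins, Sema6a had 7.66, 7.46 and 7.57 in 5XFAD and 7.28, 7.67 and 6.96 in wild type. Wild type replicate 2 was as high as the highest 5XFAD array and the groups overlapped. Its difference was 0.26 ± 0.17 (limma adjusted p = 0.913), and without wild type replicate 2 it was 0.44 ± 0.13 (unadjusted p = 0.0101, adjusted p = 0.418). Under the 17 other settings given below the Sema6a difference ran from 0.09 to 0.44, with a limma unadjusted p from 0.0101 to 0.567. Sema6b was at -0.09 ± 0.11, Sema6c at 0.07 ± 0.10 and Sema6d at -0.07 ± 0.10. Sema6c did not overlap between the groups, but its 5XFAD values of 5.84, 5.97 and 5.83 were hardly above the wild-type ones of 5.82, 5.81 and 5.79. Sema7a, which binds plexin C1 and integrins, had 8.25, 7.72 and 8.06 in 5XFAD, against 8.16, 8.35 and 8.13 in wild type, a difference of -0.20 ± 0.14 with overlapping groups.

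**Figure D3:**
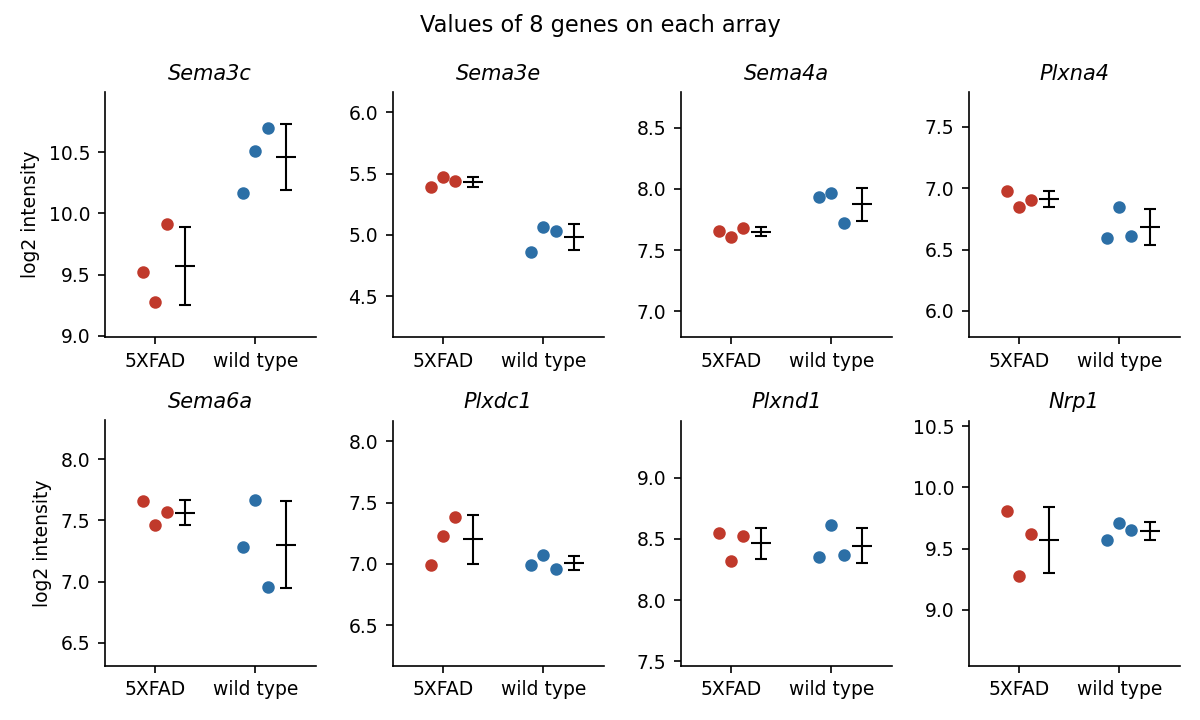
Log2 intensity (vertical axes, all of the same span) of 5 ligands and receptors nearest to or past an unadjusted p of 0.05, and of Sema6a, Plxnd1 and Nrp1, on each array, with 5XFAD in red on the left and wild type in blue on the right of each panel. Bars are group means ± SD (n = 3). Sema3c is lower and Sema3e higher in 5XFAD. The values of Plxnd1, a receptor of both, and of Nrp1, a receptor of class 3 ligands that Sema3e does not need, overlap.

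No receptor met an unadjusted p under 0.05 in limma (0 of 13, where 6.28% of all genes did). Plxna4, a plexin that works with neuropilin-1 for Sema3a and directly for class 6 ligands, had 6.98, 6.85 and 6.90 in 5XFAD, against 6.59, 6.85 and 6.61 in wild type. Of the wild-type arrays, replicate 2 reached the level of the lowest 5XFAD array. The difference was 0.23 ± 0.11 (SE, limma unadjusted p = 0.0659, adjusted p = 0.825), and without wild type replicate 2 it was 0.31 ± 0.11 (unadjusted p = 0.0203). Under the 17 other settings given below the Plxna4 difference ran from 0.18 to 0.31, with a limma unadjusted p from 0.0203 to 0.19. Plxna3 had 6.05, 6.15 and 6.18 in 5XFAD, against 6.25, 6.25 and 6.23 in wild type. Its groups did not overlap, while the difference was small at -0.12 ± 0.09 (limma adjusted p = 0.927).

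Of the other A-type plexins, Plxna1 was at 0.04 ± 0.10 and Plxna2 at 0.01 ± 0.14 (log2 difference ± SE). Plxna1 has a second, dimmer probe set with a difference of -0.13 ± 0.10, so that the sign for this gene depends on the probe set, with neither past the threshold. The B-type plexins, receptors of class 4 ligands, were at 0.12 ± 0.14 for Plxnb1, -0.16 ± 0.12 for Plxnb2 and 0.06 ± 0.12 for Plxnb3. Both probe sets of Plxnb1 gave 0.12. Plxnc1, the Sema7a receptor, was at 0.12 ± 0.11, against -0.20 ± 0.14 for its ligand.

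Plxnd1, the endothelial receptor of Sema3e that also serves Sema3c, gave no difference beyond its spread. Plxnd1 had 8.55, 8.32 and 8.52 in 5XFAD, against 8.35, 8.61 and 8.37 in wild type, a difference of 0.02 ± 0.12 (SE) with a 95% interval from -0.24 to 0.28. Nrp1, a receptor of class 3 ligands and of vascular endothelial growth factor, had 9.81, 9.28 and 9.62 in 5XFAD, against 9.57, 9.71 and 9.65 in wild type. The 5XFAD arrays were spread on both sides of the wild-type ones and the difference was -0.07 ± 0.14 (95% interval -0.38 to 0.24). Nrp2, the other neuropilin, was at 9.76, 9.64 and 9.84 in 5XFAD and at 9.86, 9.82 and 9.95 in wild type, a difference of -0.13 ± 0.10. Endothelial markers had a median difference of 0.03 over 10 genes, with 0 of them under an unadjusted p of 0.05 in limma.

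Plxdc1 and Plxdc2 share a plexin-like domain but are not plexins, and both are known as cell-surface receptors for pigment epithelium-derived factor. Plxdc1 had 6.99, 7.23 and 7.38 in 5XFAD, against 6.99, 7.07 and 6.96 in wild type, a difference of 0.19 ± 0.12 (SE). Plxdc2 had 9.90, 9.81 and 9.47 in 5XFAD, against 9.62, 9.74 and 9.28 in wild type, a difference of 0.18 ± 0.15. Groups overlapped for both. Without 5XFAD replicate 1 the Plxdc1 difference was 0.30 ± 0.12 (limma unadjusted p = 0.0332, adjusted p = 0.956). Under the 17 other settings given below it ran from 0.10 to 0.32, with a limma unadjusted p from 0.0332 to 0.415.

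Set side by side, 13 of 20 ligands and 4 of 13 receptors had a negative difference, while 11702 of 22180 genes did. The median log2 difference was -0.07 for ligands, 0.04 for receptors and -0.01 for all genes. Mean ligand intensity was 6.93, 6.93 and 6.95 in 5XFAD, against 6.96, 7.06 and 6.95 in wild type. Mean receptor intensity was 8.27, 8.18 and 8.30 in 5XFAD, against 8.17, 8.32 and 8.14 in wild type, with wild type replicate 2 the highest array of both. These means overlapped or touched between the groups. The receptor median was -0.02 when wild type replicate 1 was left out, -0.003 when 5XFAD replicate 3 was, and 0.13 when wild type replicate 2 was, so that its sign rests on single arrays. Ligand medians stayed negative, between -0.08 and -0.02, with each array left out in turn.

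**Figure D4:**
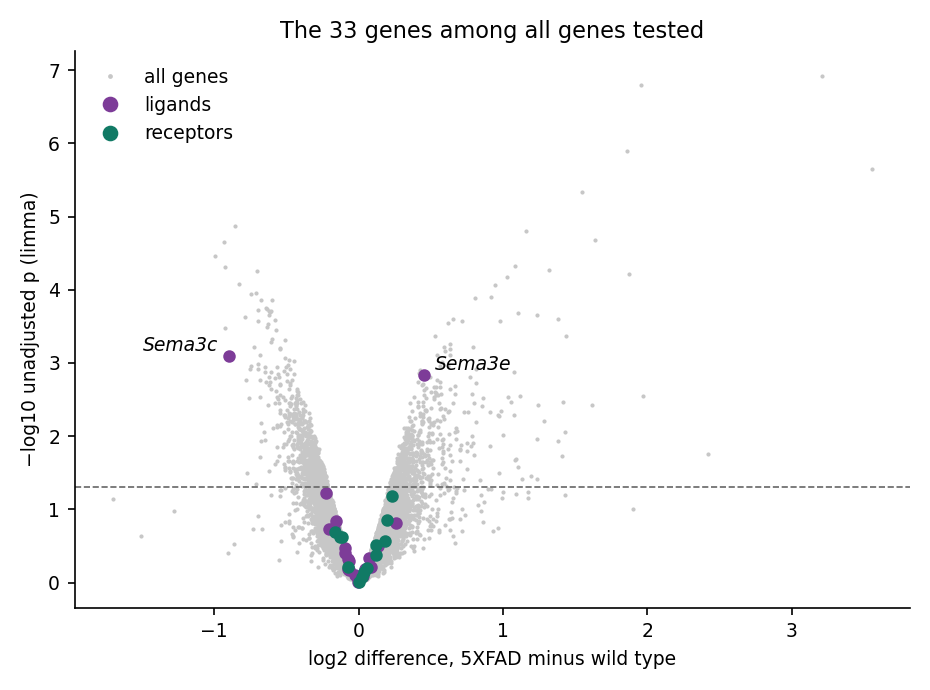
Log2 difference, 5XFAD minus wild type (horizontal axis), against -log10 of limma's unadjusted p (vertical axis) for all 22180 genes in grey, the 20 ligands in purple and the 13 receptors in green, with the dashed line at an unadjusted p of 0.05. Sema3c and Sema3e lie above the line and the other 31 members lie below it.

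How small a difference the arrays could show is given by the intervals. For the 31 members other than Sema3c and Sema3e the 95% interval held 0 and reached 0.21 to 0.38 (log2) to each side. For 28 of them the whole interval lay within 0.5 of 0, so that a larger difference in measured intensity, in either direction, is outside it. The exceptions were Sema6a, with an upper bound of 0.64, Plxdc2, with one of 0.53, and Sema7a, with a lower bound of -0.52. A difference of any size inside a gene's own interval is compatible with its values. Some of these members were dim, such as Sema4f (mean level at percentile 28.7 of all genes), Sema3a and Plxnb3 (both at 36). Background compresses fold changes of dim genes, so their intervals bound the measured signal and not the difference in transcript.

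Other genes of the pathway gave 0 calls after adjustment among 101 measured, non-member genes of 9 lists for co-receptors, effectors, proteases and neighbouring guidance families. At an unadjusted p under 0.05 limma gave 9 of them, 6 higher and 3 lower, or 8.91% where 6.28% of all genes were under it. The median difference over the 101 genes was 0.003.

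The lists of co-receptors, other receptors and growth factors held 4 of the 9. Met, the hepatocyte growth factor receptor that can couple to B-type plexins, had 9.93, 9.68 and 9.82 in 5XFAD, against 10.08, 10.19 and 10.34 in wild type. All 5XFAD arrays were lower, with a difference of -0.39 ± 0.11 (SE, limma adjusted p = 0.534). Tyrobp, an adaptor of myeloid receptors that joins plexin A1 complexes, was at 0.29 ± 0.12, and Lilrb4a, an inhibitory receptor of myeloid cells, was at 0.34 ± 0.15, both with overlapping groups. Pgf, the placental growth factor, which binds neuropilins as well as Flt1, had 8.35, 8.18 and 8.03 in 5XFAD, against 7.75, 7.71 and 7.63 in wild type. Pgf was higher on every 5XFAD array, by 0.49 ± 0.11 (limma unadjusted p = 0.00157, adjusted p = 0.365), while the other 7 genes of that list, among them Vegfa (-0.33 ± 0.15), were not under an unadjusted p of 0.05.

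Inside the cell, 1 of 29 measured plexin effectors was under an unadjusted p of 0.05 in limma, where 6.28% of all genes were, and their median was 0.001. The gene was Tiam1, an exchange factor of the GTPase Rac, at 0.28 ± 0.12 (SE). Of the 5 collapsin response mediators, which carry the Sema3a signal to the cytoskeleton, and the 6 proteases that process semaphorins, 0 were under that p in limma and 0 passed after adjustment, with medians of 0.02 and -0.05.

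The neighbouring guidance families supplied the other 4. Slit2, a secreted repellent, had 7.52, 7.26 and 7.18 in 5XFAD, against 6.46, 6.94 and 5.98 in wild type, a difference of 0.86 ± 0.22 (SE, limma adjusted p = 0.441) with groups that did not overlap. Robo3, a Robo receptor known from axons that cross the midline, was at -0.38 ± 0.13, and the 7 slits and robos had a median of 0.12. Ntn4, a netrin of basement membranes, had 8.98, 8.79 and 8.90 in 5XFAD, against 9.11, 9.39 and 9.30 in wild type, a difference of -0.38 ± 0.11 (limma adjusted p = 0.568), with all 5XFAD arrays lower. Epha5, an ephrin receptor, was at 0.73 ± 0.20 (limma adjusted p = 0.503), with 1 of 21 ephrin and Eph genes under an unadjusted p of 0.05. The marker lists given above that were higher or lower in 5XFAD, skeletal muscle and Muller glia among them, come from the same arrays, and their part in these values was not tested.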

How the data were processed

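Per the labels, biotin-labelled cDNA made from the total RNA of 6 samples was run on Affymetrix arrays, 1 for each sample. The authors deposited 1 normalized log2 intensity for each probe set, and the submitters' processing notes name Affymetrix Expression Console 1.1 and RMA. RMA subtracts background, equalises the arrays and summarises probes, which compresses fold changes of dim genes. No build, filter or pooling is named. Groups and replicate numbers came from the sample titles.

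Of 33793 probe sets, the platform annotation gave 1 symbol to 23521, several to 1814 (not used) and none to 8458. Where a gene had several (1082 genes), the probe set of highest mean over all arrays stood for it, leaving 22180 genes, all tested without a filter on low values. The comparison used limma 3.58.1 (R 4.3.3; lmFit, then eBayes) with genotype as its sole term, two-sided p-values and Benjamini-Hochberg adjustment across the whole table; residual degrees of freedom were 4 and prior ones 5.23. RefSeq GRCm38.p6 gave gene order and promoter windows, and 26 of 33 members had a window there.

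Members and gene lists were chosen with earlier results of these data known. Every member is named. Values on each array are given in full for members under an unadjusted p of 0.05 and for others picked by role after their values were seen, and up to 3 genes of each pathway list under that p are named. Vegfa was named after its value was seen.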

Additional observations from a re-analysis of the deposited data

How the results depend on the processing

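Under 17 other settings (16 or 15 for dim members removed by a filter), 0 of 33 members passed the adjusted threshold, and the lowest adjusted p was 0.133 (limma, Sema3c with the replicate block). The Sema3c difference ran from -1.07 to -0.75 and that of Sema3e from 0.39 to 0.49, with an unadjusted p of at most 0.00425 and 0.00992. In 22 members the sign held under these 17 settings, and the 11 whose sign changed were within 0.09 of 0 in the comparison reported. Plxnb1 moved to 0.30 when the skeletal muscle list mean was a covariate. Outside the 17, with the RPE list mean as a covariate, added after seeing the data, Sema3c changed sign, to 0.25. The cause was not tested, and that list mean separates the groups by itself.

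Members under an unadjusted p of 0.05 numbered 2, but 1 without the dimmest 50% of genes, which removes Sema3e, 3 with another quantile normalization (Sema4a added), 3 with the mean of the skeletal muscle list as covariate (Plxdc1 added), 4 with array weights (Sema4a and Plxna4 added), and 2 to 4 with each array left out. The share of all genes under that p, 6.28%, holds for the comparison reported alone. These other counts have no such share beside them and cannot be read against it. Genes past the adjusted threshold numbered 5, but 8 without the dimmest 30% of genes, 9 with arrays centred on their medians, 9 with a trended and robust prior, 8 with array weights, 8 with the rod and cone list as a covariate, and 3 (without wild type replicate 3) to 19 (without wild type replicate 2) with each array left out. The cause was not tested. The ligand median stayed between -0.08 and -0.02 under all settings run for it, while the receptor median ran from -0.02 to 0.13 and changed sign.

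Same-numbered arrays correlated at -0.056, -0.05 and 0.128 in their deviations from the group means, and 2 of 6 arrays correlated best with their own number. These values gave no sign of pairing by number, but with 3 arrays in each group they cannot show its absence. With the replicate block limma called 6 genes and 0 members. The number of arrays limits precision throughout.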
